A study of Mus musculus with 11 samples.

Results

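The genes described here are Cxcr4, Ccr2, Ccr4, Ccr7, Ccr9, S1pr1 and Itga4, which encode receptors that guide lymphocytes into and out of tissues, and Gpr171, which encodes another receptor of T cells. They are 8 of the 22180 genes measured and were taken from a fixed list of names with every probe set annotated to that gene alone, 9 probe sets in all. Gpr171 and Ccr2 were put on the list because they differ between the compounds, so their differences are given as a description with no test, and the other 6 were tested. No selectin gene is among the 8, although the set had been named for selectins as well. Selectins are therefore given only as 1 of the surrounding gene groups.

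Expression was measured on microarrays in the line 720, grown from a murine acute lymphoblastic leukaemia of T cells (T-ALL). The line is derived from an animal with 1 functional copy of Tcf12 and a Tal1 transgene under the T-lineage Lck promoter, and all groups share that background. Cells were exposed for 8 h to AI-9-54 at 50 µM (4 arrays, replicates 1 to 4), AI-8-45 at 100 µM (4 arrays, replicates 1 to 4) or AI-7-54 at 100 µM (3 arrays, replicates 1, 3 and 4). These compounds are described as inhibitors of the Runt domain, with which RUNX transcription factors hold DNA, and they are known here only by their code names. Vehicle-treated cells were not analysed here. Each difference is therefore one between compounds and not a response to any of them. AI-8-45 and AI-7-54 were given at the same dose. In the comparisons that involve AI-9-54, compound and dose cannot be told apart. The 3 comparisons share groups, so their values for a gene are not independent. The study's labels do not say whether replicates were separate cultures, and the p-values therefore rest on array-to-array spread that could be technical.

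Homing receptors are G-protein-coupled receptors and adhesion molecules of the cell surface. Chemokine receptors read gradients of small secreted chemokines, S1PR1 reads sphingosine 1-phosphate in blood and lymph and lets T cells leave thymus and lymph nodes, and integrins arrest cells on the vessel wall. In developing T cells CXCR4 and CCR9 mark the thymic stages and CCR7 and S1PR1 the later ones. In mouse T-ALL models CXCR4 on the leukaemia cells is known to hold them beside stromal cells that secrete CXCL12.

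All values are the deposited log2 signals, on which a difference of 1 is a doubling. Array medians lay between 6.61 and 6.68, and precision is limited by how many arrays there are. A low value means dim signal, which is not the same as absence. Levels of different probe sets were compared only coarsely, as dim or bright beside the array medians or the median gene. A gene's brightest probe set was also chosen by level. The first principal component (36.2% of the variance) separated the compounds. Along the second (19.6%) replicates 1 and 2 of each group lay apart from replicates 3 and 4. Differences are therefore also given within each of these replicate sets. AI-7-54 has no replicate 2, so every difference from it within replicates 1 and 2 rests on a single AI-7-54 array. Of the 15 T-lineage markers measured, 3 lay below the median gene. Cd3d averaged 11.78 and Cd3g 12.98 over all arrays, while Cd4, Cd8a and Rag2 were dim. Of 12 myeloid markers, 10 lay below the median gene, as did 7 of 8 B-lineage and 4 of 7 NK and cytotoxic markers. So did 1 of 3 erythroid and 4 of 8 stromal and endothelial markers, among which Pecam1 averaged 11.31. The mean over 15 measured T-lineage markers was lowest after AI-9-54 (9.25 to 9.43 over its arrays), against 9.46 to 9.65 after AI-8-45 and 9.58 to 9.78 after AI-7-54. In limma 6 of the 15 were lower between AI-9-54 and AI-7-54, 2 were lower between AI-9-54 and AI-8-45 and 1 was lower between AI-8-45 and AI-7-54, beside 7.29%, 0.6% and 3.53% of all genes called lower. These markers moved with the groups in which the receptor genes differed, and their part in those results was not tested.

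The Cxcr4 and Ccr4 promoters are printed because these tested bright receptors had a called difference, that of Ccr4 close to the threshold. The Itga4 promoter is printed because it held the only RUNX motif found in the windows searched. Promoter windows of RefSeq on GRCm38.p6, from 250 bases before to 50 bases after the start of a gene, were at hand for 5 of the 8 genes (Cxcr4, Ccr2, Ccr4, Ccr9 and Itga4). They were searched on both strands for the RUNX motifs TGTGGT and TGCGGT, the forkhead motif TGTTTAC and the CACCC box CACCC, which KLF factors bind. Over all 32851 promoter windows of this length, 22.4% held a RUNX motif, 3.65% a forkhead motif and 57.5% a CACCC box. Capitals mark every motif match. The windows are chr1:128592250-128592549 (minus strand) for Cxcr4, chr9:114496495-114496794 (minus strand) for Ccr4 and chr2:79255176-79255475 (plus strand) for Itga4, each written 5′ to 3′ along the gene.
Cxcr4: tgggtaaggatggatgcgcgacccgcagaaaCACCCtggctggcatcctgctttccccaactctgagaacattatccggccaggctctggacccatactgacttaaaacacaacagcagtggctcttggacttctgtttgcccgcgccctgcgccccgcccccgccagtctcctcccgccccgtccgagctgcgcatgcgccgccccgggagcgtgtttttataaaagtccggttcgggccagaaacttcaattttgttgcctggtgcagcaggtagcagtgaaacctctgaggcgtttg
Ccr4: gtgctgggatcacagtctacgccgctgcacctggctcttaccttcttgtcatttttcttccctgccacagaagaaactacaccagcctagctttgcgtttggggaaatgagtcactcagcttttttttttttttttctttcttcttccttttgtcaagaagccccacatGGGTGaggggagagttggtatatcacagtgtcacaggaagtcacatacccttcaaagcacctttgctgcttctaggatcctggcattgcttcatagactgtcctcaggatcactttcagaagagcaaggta
Itga4: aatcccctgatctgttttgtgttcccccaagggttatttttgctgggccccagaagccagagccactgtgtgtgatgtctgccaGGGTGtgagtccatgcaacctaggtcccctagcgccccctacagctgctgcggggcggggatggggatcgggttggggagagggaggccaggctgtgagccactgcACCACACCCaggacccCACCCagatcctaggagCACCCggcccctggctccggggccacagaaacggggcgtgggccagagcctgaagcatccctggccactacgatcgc

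Counted from the first printed base, the Cxcr4 window held 1 CACCC box at bases 32 to 36, and the Ccr4 window 1 on the opposite strand at bases 170 to 174. The Itga4 window held 1 RUNX motif, on the opposite strand at bases 191 to 196, which overlaps a CACCC box at 195 to 199, and 3 further CACCC boxes at 85 to 89, 207 to 211 and 224 to 228. The Ccr9 window held 1 CACCC box and the Ccr2 window none of the motifs. A match describes letters in the window and is neither a binding site nor a cause.

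**Figure D1:**
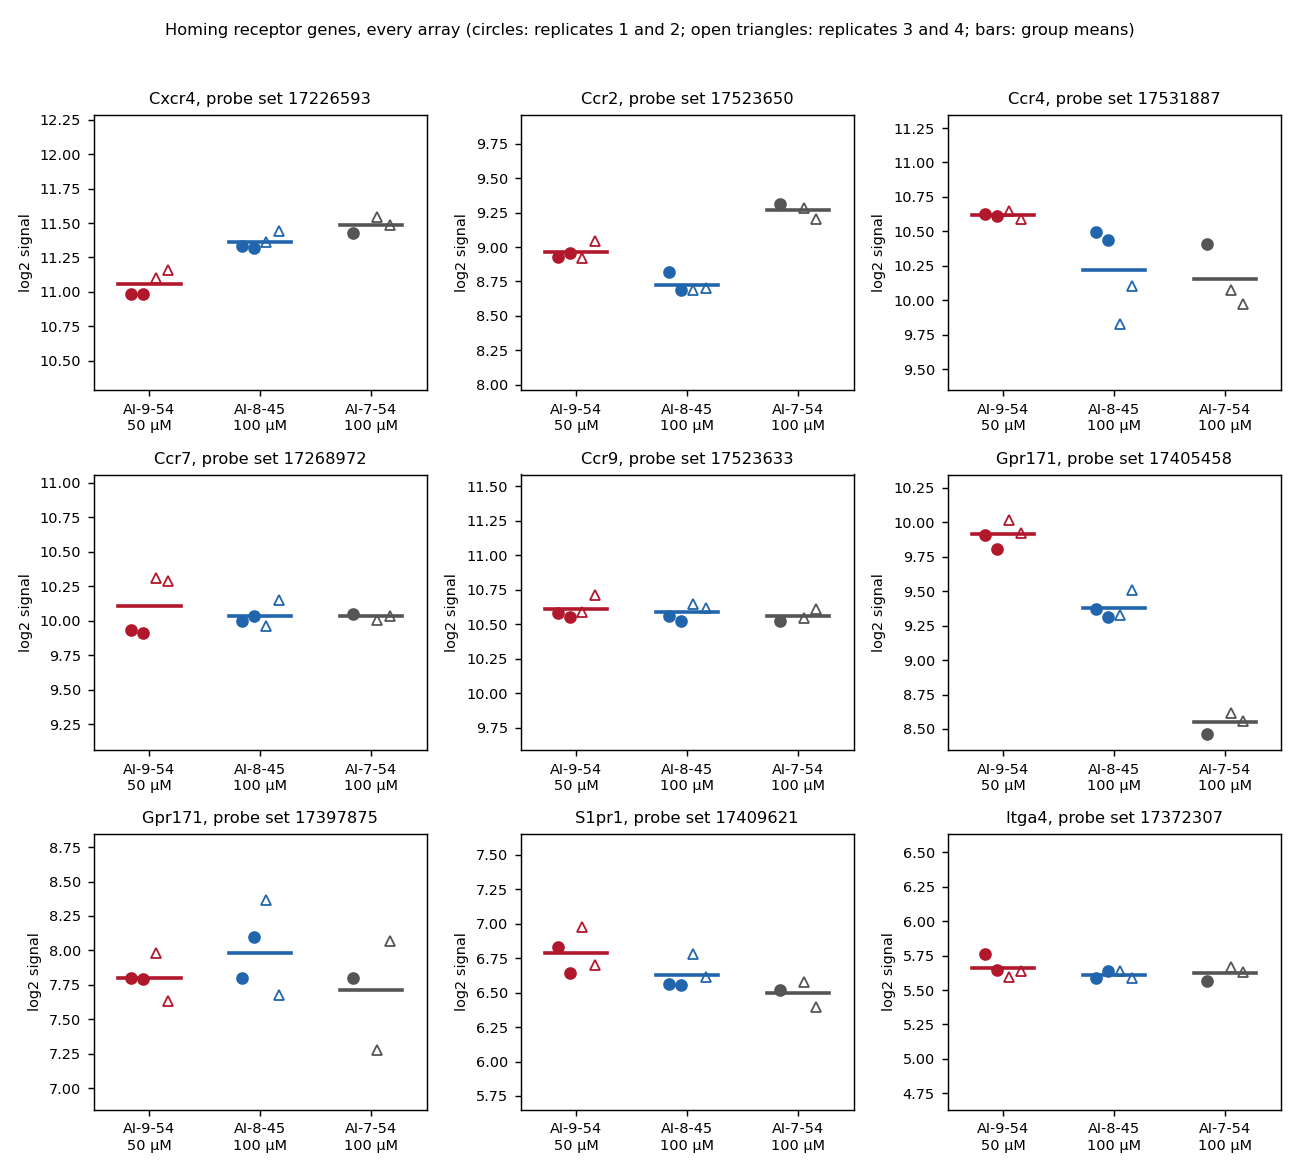
Log2 signal (vertical axis, an equal span of 2 in every panel) of each probe set on each array after AI-9-54 at 50 µM, AI-8-45 at 100 µM and AI-7-54 at 100 µM. Filled circles are replicates 1 and 2, open triangles replicates 3 and 4 and bars group means; Gpr171 (17405458) and Ccr2 separate all 3 groups, Cxcr4 is lowest after AI-9-54, and Ccr7, Ccr9 and Itga4 overlap.

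Cxcr4 encodes the receptor for CXCL12, which holds progenitors and leukaemia cells near stroma. Its signal was 10.99, 10.98, 11.10 and 11.16 on the AI-9-54 arrays, 11.33, 11.32, 11.36 and 11.44 on the AI-8-45 arrays and 11.43, 11.54 and 11.49 on the AI-7-54 arrays. All 4 AI-9-54 arrays lay below all arrays of the other groups, while AI-8-45 and AI-7-54 overlapped only at their edges. Cxcr4 was lower after AI-9-54, at 11.06 ± 0.09 (SD, n = 4), against 11.49 ± 0.06 after AI-7-54 (n = 3), a log2 difference of -0.43 with a 95% interval of -0.55 to -0.31 (1.35-fold lower, limma adjusted p 0.000254). Against AI-8-45 (11.36 ± 0.06, n = 4) the difference was -0.31, with an interval of -0.42 to -0.19 (1.24-fold lower, limma adjusted p 0.0144). Within replicates 1 and 2 the difference was -0.44 from AI-7-54 and -0.34 from AI-8-45, and within replicates 3 and 4 it was -0.39 and -0.27. The call against AI-8-45 was lost within the replicate sets (limma adjusted p 0.148 and 0.139), each with 2 arrays per group.

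At the shared dose of 100 µM, Cxcr4 after AI-8-45 differed from AI-7-54 by -0.12 (95% interval -0.24 to -0.0032). This missed the threshold after adjustment over all genes (limma adjusted p 0.282, unadjusted 0.045), and the values were -0.10 within replicates 1 and 2 and -0.11 within replicates 3 and 4. Cxcr4 was the only tested receptor gene with an unadjusted p under 0.05 in that comparison. Cxcl12, the ligand gene, belongs to the list of ligands described further on, of which none was called between AI-8-45 and AI-7-54. Of all genes, 5.66% were called there.

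Ccr4 encodes the receptor for CCL17 and CCL22, used by skin-homing and type 2 T cells. Its signal was 10.63, 10.61, 10.65 and 10.59 on the AI-9-54 arrays, 10.50, 10.44, 9.83 and 10.11 on the AI-8-45 arrays and 10.41, 10.07 and 9.98 on the AI-7-54 arrays. The 4 AI-9-54 arrays lay close together and above every other array, whereas the other groups were spread, with their arrays of replicates 1 and 2 above those of replicates 3 and 4. Ccr4 was higher after AI-9-54, at 10.62 ± 0.03 (SD, n = 4), against 10.15 ± 0.23 after AI-7-54 (n = 3), a log2 difference of 0.47 with a 95% interval of 0.16 to 0.78 (1.38-fold higher, limma adjusted p 0.0459). This value was 0.21 within replicates 1 and 2, with a single AI-7-54 array, and 0.59 within replicates 3 and 4.

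The Ccr4 call is close to the threshold. It was lost without AI-7-54 replicate 3 (0.43, limma adjusted p 0.161) or replicate 4 (0.38, 0.191), without AI-8-45 replicate 4 (0.47, 0.056) and without replicate 1, 2, 3 or 4 of AI-9-54 (0.46 to 0.48, 0.0752 to 0.0904). Against AI-8-45 (10.22 ± 0.31, SD, n = 4) Ccr4 after AI-9-54 differed by 0.40, with an interval of 0.12 to 0.69 (limma adjusted p 0.212), and by 0.15 within replicates 1 and 2 and 0.65 within replicates 3 and 4. With the replicate set in the model that difference passed the test (limma adjusted p 0.0352). Between AI-8-45 and AI-7-54 the difference was 0.07 (interval -0.24 to 0.37, limma adjusted p 0.915), so differences up to about that size in either direction are not resolved by these arrays.

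S1pr1 encodes the sphingosine 1-phosphate receptor through which T cells leave thymus and lymph nodes. Its signal was 6.83, 6.64, 6.97 and 6.70 on the AI-9-54 arrays, 6.56, 6.55, 6.78 and 6.61 on the AI-8-45 arrays and 6.52, 6.58 and 6.39 on the AI-7-54 arrays. All values were near the array medians, so no fold is given. The AI-9-54 arrays lay above all AI-7-54 arrays and overlapped those of AI-8-45. S1pr1 was higher after AI-9-54, at 6.79 ± 0.15 (SD, n = 4), against 6.50 ± 0.09 after AI-7-54 (n = 3), a log2 difference of 0.29 with a 95% interval of 0.11 to 0.47 (limma adjusted p 0.0332). It was 0.22 within replicates 1 and 2, with a single AI-7-54 array, and 0.35 within replicates 3 and 4 (limma adjusted p 0.108).

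The S1pr1 call was lost without AI-7-54 replicate 1 (0.30, limma adjusted p 0.0711), replicate 3 (0.33, 0.0515) or replicate 4 (0.24, 0.151), and without AI-9-54 replicate 1 (0.28, 0.0761) or replicate 3 (0.23, 0.0742). AI-8-45 lay between the other groups, at 6.63 ± 0.11 (SD, n = 4). The difference of AI-9-54 from AI-8-45 was 0.16 (interval -0.01 to 0.32, limma adjusted p 0.46), and that of AI-8-45 from AI-7-54 was 0.13 (interval -0.05 to 0.31, limma adjusted p 0.502). Neither passed the test.

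Ccr7, Ccr9 and Itga4 gave no called difference in any comparison. Ccr7 encodes the receptor for CCL19 and CCL21 that brings T cells into lymph nodes, and its signal was 9.93, 9.91, 10.31 and 10.29 after AI-9-54, 10.00, 10.04, 9.96 and 10.15 after AI-8-45 and 10.05, 10.01 and 10.04 after AI-7-54. The AI-9-54 arrays split by replicate set, replicates 1 and 2 lying below and replicates 3 and 4 above every array of the other groups. Against AI-7-54 the Ccr7 difference was 0.08 (95% interval -0.13 to 0.28, limma adjusted p 0.717), made up of -0.13 within replicates 1 and 2 and 0.28 within replicates 3 and 4. Against AI-8-45 it was 0.07 (-0.12 to 0.26, limma adjusted p 0.835), with -0.09 and 0.24 within the sets. Between AI-8-45 and AI-7-54 the Ccr7 difference was 0.01 (interval -0.20 to 0.21, limma adjusted p 0.993).

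Ccr9, the gene of the CCL25 receptor that draws progenitors to the thymus and T cells to the small intestine, measured 10.58, 10.55, 10.59 and 10.71 after AI-9-54, 10.56, 10.52, 10.65 and 10.62 after AI-8-45 and 10.52, 10.54 and 10.61 after AI-7-54. The groups overlapped throughout. Its differences were 0.05 (95% interval -0.06 to 0.16, limma adjusted p 0.661) for AI-9-54 against AI-7-54, 0.02 (-0.08 to 0.12, 0.928) for AI-9-54 against AI-8-45 and 0.03 (-0.08 to 0.14, 0.883) for AI-8-45 against AI-7-54. Of these 3 intervals, none reached 0.17 in either direction.

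Itga4 encodes the α4 integrin subunit, which with β1 binds VCAM-1 and with β7 binds the gut addressin MAdCAM-1. Its single-gene probe set was dim, at 5.76, 5.64, 5.60 and 5.64 after AI-9-54, 5.59, 5.64, 5.64 and 5.58 after AI-8-45 and 5.57, 5.66 and 5.63 after AI-7-54. These values lie below the array medians and overlap, and a further probe set annotated to both Cerkl and Itga4 was not assigned to either gene. The differences were 0.04 (95% interval -0.07 to 0.14, limma adjusted p 0.737) for AI-9-54 against AI-7-54, 0.05 (-0.05 to 0.14, 0.758) for AI-9-54 against AI-8-45 and -0.01 (-0.11 to 0.09, 0.957) for AI-8-45 against AI-7-54. These intervals describe the signal of a dim probe set.

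Of the 6 tested receptor genes, 3 were called between AI-9-54 and AI-7-54, S1pr1 and Ccr4 higher and Cxcr4 lower, where 14.2% of all genes were called (6.87% higher and 7.29% lower). Between AI-9-54 and AI-8-45 1 was called, Cxcr4, and 2 had an unadjusted p under 0.05, where 1.31% of all genes were called (0.708% higher and 0.6% lower). Between AI-8-45 and AI-7-54 limma called 0 of the 6, where 5.66% of all genes were called (2.13% higher and 3.53% lower). Groups did not overlap for 3 of the 6 between AI-9-54 and AI-7-54, for 2 between AI-9-54 and AI-8-45 and for 0 between AI-8-45 and AI-7-54, beside 23.2%, 6.67% and 15.9% of all genes. The count between AI-9-54 and AI-7-54 was 1, Cxcr4, without AI-7-54 replicate 3, AI-7-54 replicate 4, AI-9-54 replicate 1 or AI-9-54 replicate 3. The median difference of the 6 was 0.063 between AI-9-54 and AI-7-54, 0.061 between AI-9-54 and AI-8-45 and 0.017 between AI-8-45 and AI-7-54, beside -0.0014, 8.75e-05 and 0.0014 over all genes.

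**Figure D2:**
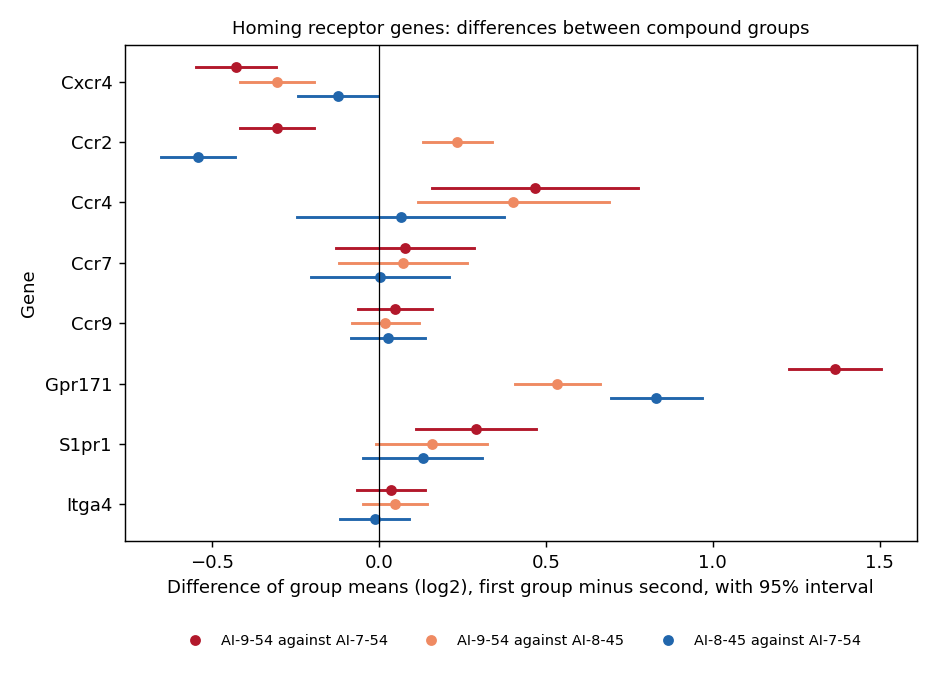
Difference of group means (log2, horizontal axis, first group minus second) for each receptor gene, with points for estimates and lines for 95% intervals. Cxcr4 lies below 0 for AI-9-54 against AI-7-54 (-0.43) and AI-9-54 against AI-8-45 (-0.31), the intervals of Ccr7, Ccr9 and Itga4 all include 0, and Gpr171 and Ccr2 were picked for their differences.

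Gpr171 and Ccr2 were chosen from these values, so they are described only. Their 95% intervals, group separations and values within replicate sets take no account of that choice and are not a test. Gpr171 encodes a G-protein-coupled receptor of the P2Y-like family, known in mouse brain as a receptor for the peptide BigLEN and in T cells as an inhibitory receptor. Its brighter probe set, 17405458, measured 9.91, 9.81, 10.02 and 9.92 after AI-9-54, 9.37, 9.31, 9.33 and 9.51 after AI-8-45 and 8.46, 8.62 and 8.56 after AI-7-54. The 3 groups did not overlap. The level was 9.91 ± 0.09 after AI-9-54 (SD, n = 4), 9.38 ± 0.09 after AI-8-45 (n = 4) and 8.55 ± 0.08 after AI-7-54 (n = 3). AI-9-54 stood above AI-7-54 by 1.37 (95% interval 1.23 to 1.50, 2.58-fold) and above AI-8-45 by 0.53 (0.41 to 0.66). AI-8-45 stood above AI-7-54 by 0.83 at the same dose (0.69 to 0.97, 1.78-fold).

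Within replicates 1 and 2 and within replicates 3 and 4 the Gpr171 difference was 1.39 and 1.38 for AI-9-54 against AI-7-54, 0.52 and 0.55 for AI-9-54 against AI-8-45 and 0.88 and 0.83 for AI-8-45 against AI-7-54. The other Gpr171 probe set, 17397875, did not follow this order. It measured 7.80, 7.79, 7.98 and 7.63 after AI-9-54, 7.80, 8.10, 8.36 and 7.67 after AI-8-45 and 7.80, 7.27 and 8.07 after AI-7-54, and all groups overlapped. Its differences were 0.09 (95% interval -0.31 to 0.49) for AI-9-54 against AI-7-54, -0.18 (-0.55 to 0.19) for AI-9-54 against AI-8-45 and 0.27 (-0.13 to 0.67) for AI-8-45 against AI-7-54. The mean of both probe sets gave 0.73, 0.18 and 0.55 for the same comparisons.

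Ccr2 encodes the receptor for CCL2, best known on monocytes and also used by early thymus-seeding progenitors in the mouse. Its signal was 8.92, 8.96, 8.92 and 9.05 after AI-9-54, 8.82, 8.69, 8.69 and 8.70 after AI-8-45 and 9.32, 9.28 and 9.21 after AI-7-54. The 3 groups did not overlap, and their order differed from that of Gpr171, with AI-8-45 lowest. The level was 8.96 ± 0.06 after AI-9-54 (SD, n = 4), 8.73 ± 0.06 after AI-8-45 (n = 4) and 9.27 ± 0.06 after AI-7-54 (n = 3). AI-9-54 stood below AI-7-54 by a difference of -0.31 (95% interval -0.42 to -0.19) and above AI-8-45 by 0.24 (0.13 to 0.34), and AI-8-45 stood below AI-7-54 by a difference of -0.54 (-0.65 to -0.43, 1.46-fold lower). Within replicates 1 and 2 and within replicates 3 and 4 these were -0.38 and -0.26, 0.19 and 0.29, and -0.56 and -0.55.

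Since Ccr2 is also a monocyte gene, the 12 myeloid markers were set beside it. Their mean per array was at most 6.02 after AI-9-54, 5.97 to 6.02 after AI-8-45 and 5.96 to 6.03 after AI-7-54, so the groups overlapped. Limma called none of the 12 in any comparison (2 had an unadjusted p under 0.05 between AI-9-54 and AI-7-54, none in the other comparisons). Of all genes, 14.2% were called between AI-9-54 and AI-7-54, 1.31% between AI-9-54 and AI-8-45 and 5.66% between AI-8-45 and AI-7-54. Of the 12, 10 lay below the median gene, and a part of myeloid cells in the Ccr2 values was not tested.

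**Figure D3:**
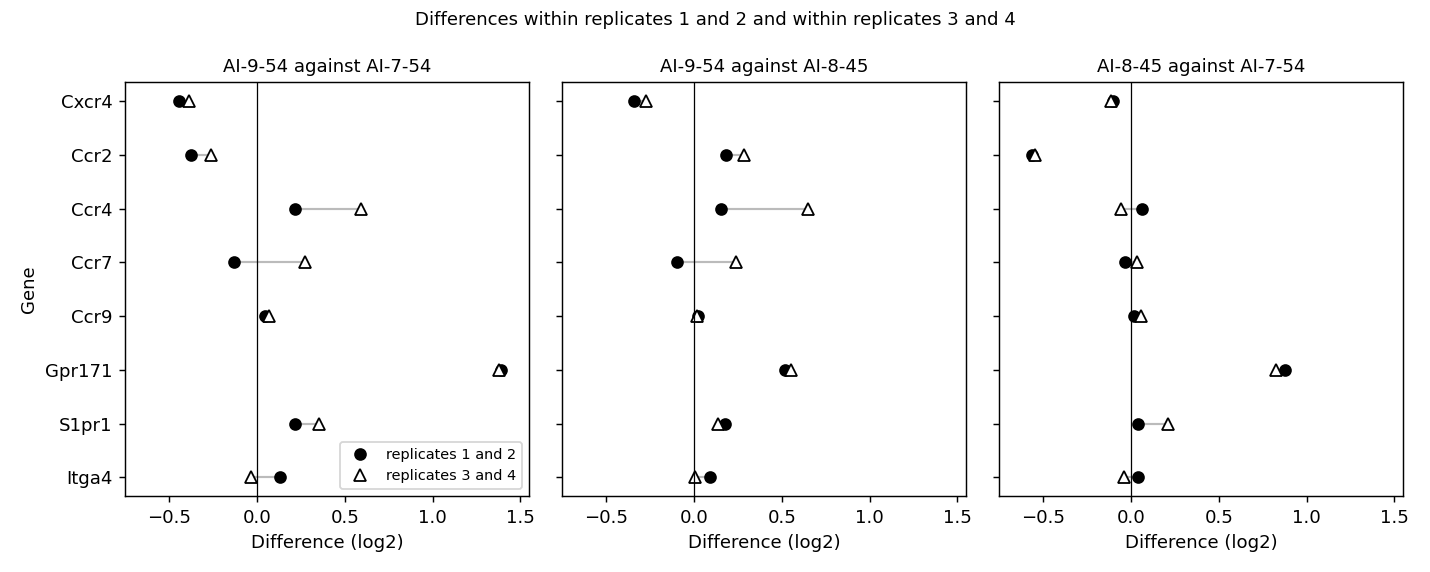
Difference of group means (log2, horizontal axis) for each receptor gene within replicates 1 and 2 (filled circles) and within replicates 3 and 4 (open triangles), with 1 panel per comparison and Gpr171 by probe set 17405458. Ccr4 and Ccr7 move apart between the sets in the AI-9-54 comparisons (Ccr4 0.21 and 0.59, Ccr7 -0.13 and 0.28 against AI-7-54), while Gpr171, Ccr2 and Cxcr4 stay close. AI-7-54 has a single array in replicates 1 and 2.

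For Ccr2 and Gpr171, the genes whose groups differed by at least 0.5, the profiles nearest over the 11 arrays were looked up among 19235 genes by the root mean square difference of centred log2 values. Those nearest to Ccr2 were Cobll1 (0.0793), Tmem109 (0.102) and Lrrc8c (0.103). Those nearest to Gpr171 were Zfp563 (0.096), Rundc3b (0.105) and Gramd3 (0.143). Cobll1, for example, averaged 6.93 after AI-9-54, 6.67 after AI-8-45 and 7.22 after AI-7-54, the same order of groups as Ccr2, and Zfp563 averaged 10.19, 9.75 and 8.97, the order of Gpr171. These genes were selected for likeness, which all arrays and compounds share, and nothing follows from it about function or control.

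The other genes of the homing machinery were counted from 8 lists of 123 genes, 115 of which were measured. Between AI-9-54 and AI-7-54 limma called 14 of them (12.2%), 9 higher and 5 lower, beside 14.2% of all genes. Between AI-9-54 and AI-8-45 it called 2 (1.74%), 1 higher and 1 lower, beside 1.31%. Between AI-8-45 and AI-7-54 it called 8 (6.96%), 4 higher and 4 lower, beside 5.66%. The shares were near those of all genes, so the lists as a whole are not a result about homing genes.

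Among the other chemokine receptors, Ccr8 and Cx3cr1 had lower signals after both AI-9-54 and AI-8-45 than after AI-7-54. Ccr8 encodes the receptor for CCL1 and lies near Ccr4 in function, being used by skin-homing and regulatory T cells. It measured 9.07, 9.23, 9.07 and 9.25 after AI-9-54, 9.48, 9.22, 9.13 and 9.14 after AI-8-45 and 10.17, 9.86 and 9.84 after AI-7-54, so that AI-7-54 stood above both other groups. Its difference was -0.80 for AI-9-54 against AI-7-54 (limma adjusted p 0.000187) and -0.72 for AI-8-45 against AI-7-54 (limma adjusted p 0.00119). Cx3cr1, the fractalkine receptor gene, averaged 8.10 ± 0.13 after AI-9-54 (SD, n = 4), 8.00 ± 0.11 after AI-8-45 (n = 4) and 8.53 ± 0.10 after AI-7-54 (n = 3). Its difference from AI-7-54 was -0.43 for AI-9-54 (limma adjusted p 0.00314) and -0.52 for AI-8-45 (limma adjusted p 0.00252).

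Cxcr6, which encodes the CXCL16 receptor of tissue-resident T cells, averaged 9.35 ± 0.30 after AI-9-54 (SD, n = 4) and 8.85 ± 0.01 after AI-7-54 (n = 3), a difference of 0.49 (limma adjusted p 0.0206). It followed the replicate set, with 0.23 within replicates 1 and 2 and 0.75 within replicates 3 and 4, and its call was lost without AI-7-54 replicate 1, 3 or 4 or AI-9-54 replicate 3 (limma adjusted p 0.0526 to 0.0704). Of the 17 other chemokine receptors measured, limma called 3 between AI-9-54 and AI-7-54 (17.6%, beside 14.2% of all genes), 2 between AI-8-45 and AI-7-54 (11.8%, beside 5.66%) and 0 between AI-9-54 and AI-8-45 (1 at an unadjusted p under 0.05, beside 1.31% called).

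Among 7 measured sphingosine 1-phosphate receptors and partners of S1pr1, the transcription factors FOXO1 and KLF2 stand upstream of S1pr1 in mouse T cells. Of the 7, limma called 1 between AI-9-54 and AI-7-54 (14.3%, beside 14.2% of all genes). Between AI-8-45 and AI-7-54 it called 1 (14.3%, beside 5.66%), and between AI-9-54 and AI-8-45 it called 0 (beside 1.31%). Foxo1 averaged 10.36 ± 0.15 after AI-9-54 (SD, n = 4) and 9.77 ± 0.04 after AI-7-54 (n = 3), a difference of 0.59 (limma adjusted p 0.000578). The mean of its probe sets gave 0.26, the other one being dim. Klf2 measured 7.75, 7.84, 7.94 and 7.89 after AI-9-54, 7.52, 7.52, 7.74 and 7.54 after AI-8-45 and 8.02, 7.81 and 7.79 after AI-7-54, and was lower after AI-8-45 than after AI-7-54 by a difference of -0.29 (limma adjusted p 0.0362).

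That Klf2 call was lost without AI-7-54 replicate 1, 3 or 4, without AI-8-45 replicate 1, 2 or 4 and without AI-9-54 replicate 2 (limma adjusted p 0.0511 to 0.132). Replicates 1 and 2 gave a Klf2 difference of -0.50, and replicates 3 and 4 one of -0.16. Cd69, whose product binds S1PR1 and takes it from the surface, measured 10.79, 10.79, 10.02 and 10.08 after AI-9-54, 10.13, 10.06, 9.60 and 9.70 after AI-8-45 and 10.03, 9.81 and 9.85 after AI-7-54. It was split by replicate set after AI-9-54 and AI-8-45, and in the model used throughout no comparison called it. With AI-9-54 set against AI-7-54 the Cd69 difference was 0.52 (limma adjusted p 0.112), and the call was gained with the replicate block (0.43, limma adjusted p 0.0139) and with the replicate set in the model (0.44, 0.00385). Against AI-8-45 it was 0.55 (limma adjusted p 0.228), and was called with the set in the model (0.00304).

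Of 18 other integrin subunits, limma called 1 between AI-9-54 and AI-7-54 (5.56%, beside 14.2% of all genes). It called 2 between AI-8-45 and AI-7-54 (11.1%, beside 5.66%) and 1 between AI-9-54 and AI-8-45 (5.56%, beside 1.31%). Among these 18, Itgb3 was called in every comparison. It encodes β3, which pairs with αv to bind vitronectin, and measured 9.81, 9.93, 9.98 and 9.95 after AI-9-54, 9.44, 9.30, 9.42 and 9.54 after AI-8-45 and 9.23, 8.82 and 8.81 after AI-7-54. The 3 groups did not overlap. AI-9-54 was higher than AI-7-54 by 0.97 (limma adjusted p 3.17e-05) and higher than AI-8-45 by 0.49 (limma adjusted p 0.0191), and AI-8-45 was higher than AI-7-54 by 0.47 (limma adjusted p 0.0118). The difference of AI-8-45 from AI-7-54 was 0.14 within replicates 1 and 2, and that of AI-9-54 from AI-7-54 was 0.64, each resting on the single AI-7-54 array of that set. The call between AI-8-45 and AI-7-54 was lost without AI-7-54 replicate 3 or 4 (limma adjusted p 0.073 and 0.0644). That between AI-9-54 and AI-8-45 was lost without AI-8-45 replicate 1, 2 or 3 or AI-9-54 replicate 2, 3 or 4 (limma adjusted p 0.0501 to 0.0617).

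The partners of the α4 subunit differed less. Itgb1, the β1 gene, was lower after AI-8-45 than after AI-7-54 by a difference of -0.17 (limma adjusted p 0.0337), at 10.38 ± 0.04 after AI-8-45 (SD, n = 4) and 10.54 ± 0.03 after AI-7-54 (n = 3), a call lost in 6 of 11 cases with 1 array left out (AI-7-54 replicate 1, 3 or 4 and AI-8-45 replicate 1, 3 or 4, limma adjusted p 0.0508 to 0.157). Itgb7, the β7 gene, averaged 8.09 ± 0.08 after AI-9-54 (SD, n = 4), 7.98 ± 0.07 after AI-8-45 (n = 4) and 7.96 ± 0.17 after AI-7-54 (n = 3) and was not called in any comparison.

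The 11 measured selectins and selectin ligand genes gave 0 calls in limma in every comparison. Over all genes the shares were 14.2% between AI-9-54 and AI-7-54, 1.31% between AI-9-54 and AI-8-45 and 5.66% between AI-8-45 and AI-7-54. So few genes cannot tell 0 calls from these shares. Of the 11, 2 had an unadjusted p under 0.05 between AI-8-45 and AI-7-54, none in the other comparisons. That count of 0 did not hold between AI-8-45 and AI-7-54 with the replicate set in the model, where Selplg was called (0.21, limma adjusted p 0.0189, against 0.19 and 0.2 without it). Selplg, which encodes PSGL-1, the main selectin ligand of T cells, averaged 11.67 ± 0.11 after AI-9-54 (SD, n = 4), 11.81 ± 0.13 after AI-8-45 (n = 4) and 11.62 ± 0.03 after AI-7-54 (n = 3). The 12 measured ligands and counter-receptors of homing gave 1 call, between AI-9-54 and AI-7-54 (8.33%, beside 14.2% of all genes). It was Ccl25, the gene of the CCR9 ligand. It averaged 8.84 ± 0.03 after AI-9-54 (SD, n = 4) and 8.59 ± 0.11 after AI-7-54 (n = 3), a difference of 0.26 (limma adjusted p 0.00532). Within replicates 3 and 4 this call was lost (0.21, limma adjusted p 0.135). Within replicates 1 and 2, with a single AI-7-54 array, the difference was 0.34.

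Of 27 genes of the signalling behind these receptors, 4 were called between AI-9-54 and AI-7-54 (14.8%, beside 14.2% of all genes), 1 between AI-8-45 and AI-7-54 (3.70%, beside 5.66%) and 0 between AI-9-54 and AI-8-45 (limma, 6 at an unadjusted p under 0.05, beside 1.31% called). These shares are near those of all genes. Rgs1 and Rgs2 encode regulators that shorten G-protein signals, RGS1 among them known to dampen chemokine responses of lymphocytes. Rgs1 measured 10.71, 10.73, 10.48 and 10.53 after AI-9-54, 10.44, 10.29, 10.04 and 10.19 after AI-8-45 and 9.96, 9.65 and 9.60 after AI-7-54, and AI-7-54 lay below both other groups. It was higher by 0.88 for AI-9-54 against AI-7-54 (limma adjusted p 0.000164) and by 0.50 for AI-8-45 against AI-7-54 (limma adjusted p 0.0158). The second of these calls was lost without AI-7-54 replicate 3 or 4 (limma adjusted p 0.0861 and 0.0804).

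Rgs2 was higher by 0.41 for AI-9-54 against AI-7-54 (limma adjusted p 0.00517), at 12.01 ± 0.05 after AI-9-54 (SD, n = 4) and 11.60 ± 0.18 after AI-7-54 (n = 3), and the mean of its probe sets gave 0.21 and no call (limma adjusted p 0.174), the other set being dim. Grk5, a receptor kinase gene, was higher by 0.25 near the array medians (limma adjusted p 0.0411), a call lost in 9 of 11 cases with 1 array left out (limma adjusted p 0.0549 to 0.155, those without AI-7-54 replicate 1, 3 or 4, AI-8-45 replicate 2 or 4 or any AI-9-54 replicate). Elmo1, which encodes a partner of the Rac activator DOCK2 in lymphocyte migration, was lower by -0.30 (limma adjusted p 0.00189).

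Of 12 measured genes of integrin activation, limma called 1 between AI-9-54 and AI-7-54 (8.33%, beside 14.2% of all genes). It also called 1 between AI-9-54 and AI-8-45 (8.33%, beside 1.31%) and 0 between AI-8-45 and AI-7-54 (beside 5.66%). Apbb1ip, the gene called in each case, encodes RIAM, which links RAP1 to talin when integrins are activated. It measured 10.60, 10.49, 10.65 and 10.62 after AI-9-54, 10.89, 10.84, 10.86 and 10.81 after AI-8-45 and 10.82, 10.82 and 10.87 after AI-7-54. All 4 AI-9-54 arrays lay below all others. The difference was -0.24 against AI-7-54 (limma adjusted p 0.00356) and -0.26 against AI-8-45 (limma adjusted p 0.0132). The call against AI-8-45 was lost within replicates 1 and 2 (-0.32, limma adjusted p 0.239) and within replicates 3 and 4 (-0.20, 0.213). That against AI-7-54 was lost within replicates 3 and 4 (-0.21, limma adjusted p 0.0602). Apbb1ip and Itgb3 were the only other homing genes called between AI-9-54 and AI-8-45 in the model used throughout. The count was 3 with quantile normalization, genes above the median level, a trended prior or array weights. It was 4 without AI-7-54 replicate 1. It was 1 without AI-8-45 replicate 2 or AI-9-54 replicate 2, 3 or 4, and 0 within replicates 1 and 2.

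Of 11 measured receptors related to Gpr171, limma called 3 between AI-9-54 and AI-7-54 (27.3%, beside 14.2% of all genes). It called 2 between AI-8-45 and AI-7-54 (18.2%, beside 5.66%) and 0 between AI-9-54 and AI-8-45 (beside 1.31%). These shares rest on few genes. P2ry10 and Gpr132 were higher after both AI-9-54 and AI-8-45 than after AI-7-54. P2ry10, the gene of a lysophosphatidylserine receptor that lymphocytes carry, measured 9.13, 9.20, 9.22 and 9.07 after AI-9-54, 8.74, 8.78, 8.94 and 8.98 after AI-8-45 and 8.01, 8.30 and 8.32 after AI-7-54. The groups did not overlap. Its difference was 0.95 for AI-9-54 against AI-7-54 (limma adjusted p 1.35e-05) and 0.65 for AI-8-45 against AI-7-54 (limma adjusted p 0.000712).

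Gpr132, which encodes a receptor for lysolipids and fatty acid metabolites, was higher by 0.72 for AI-9-54 against AI-7-54 (limma adjusted p 0.00199), at 8.98 ± 0.17 after AI-9-54 (SD, n = 4) and 8.25 ± 0.30 after AI-7-54 (n = 3). For AI-8-45 against AI-7-54 it was higher by 0.54 (limma adjusted p 0.0251), with 0.24 within replicates 1 and 2, a call lost without AI-7-54 replicate 3 or 4 or AI-8-45 replicate 1, 2 or 4 (limma adjusted p 0.0508 to 0.119). Gpr65, the gene of a proton-sensing receptor, was lower by -0.20 for AI-9-54 against AI-7-54 (limma adjusted p 0.0221), and this call was lost without AI-7-54 replicate 1, 3 or 4 or AI-9-54 replicate 3 (limma adjusted p 0.0502 to 0.0787).

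**Figure D4:**
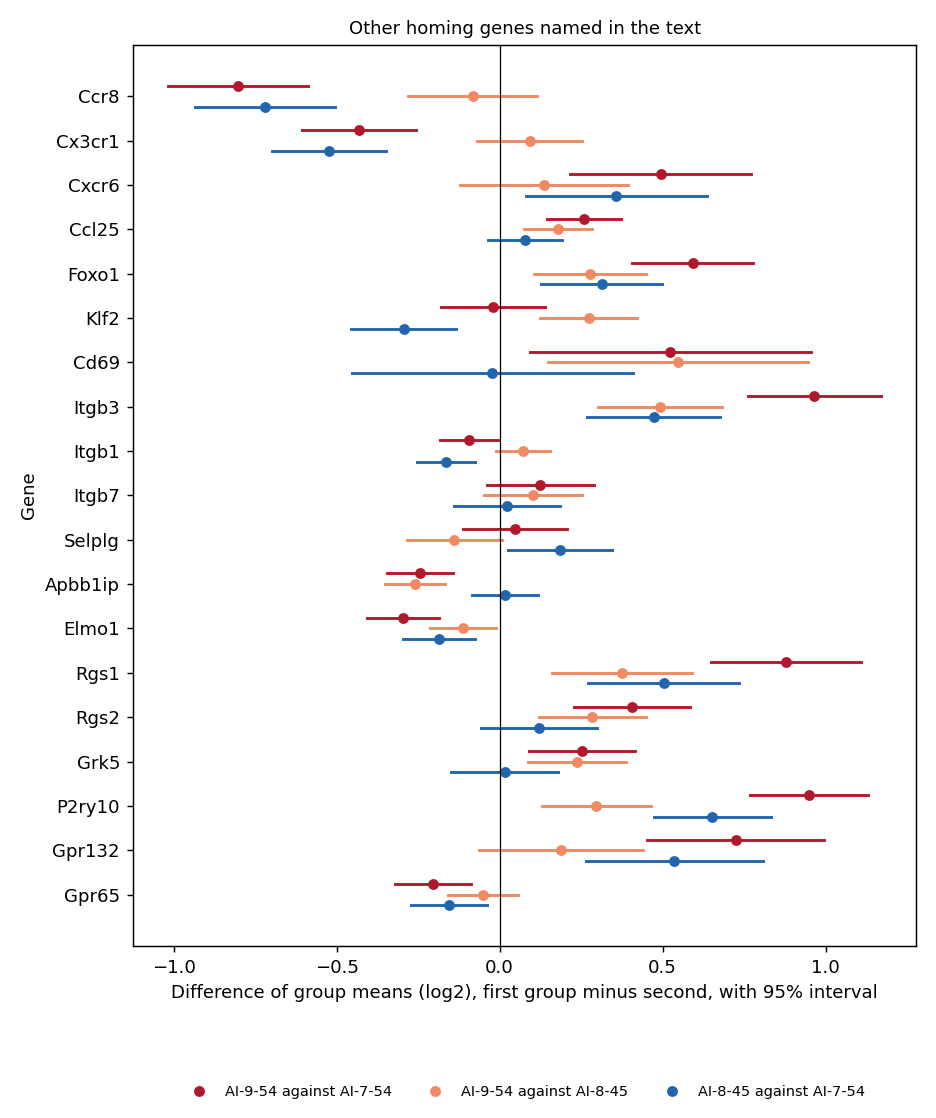
Difference of group means (log2, horizontal axis, first group minus second) with 95% intervals for the other homing genes named in the text. Ccr8 and Cx3cr1 lie below 0 and Itgb3, Rgs1, P2ry10 and Gpr132 above 0 in both comparisons with AI-7-54, while Apbb1ip lies below 0 in both comparisons of AI-9-54 (-0.24 and -0.26).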

How the data were processed

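Signals came from microarrays of total RNA from the 720 line on 11 arrays, 1 per sample. Per the submitters' processing notes the values were made with RMA in Partek 6.6; the deposited table holds log2 values, a scale inferred from their range of 3.23 to 13.80. The genome build behind the annotation is not given in the sources used here.

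Of 41345 probe sets, 23521 carried a single gene symbol, 1814 carried several and 16010 had no name here; 23328 symbols were brought up to date through Entrez identifiers. A gene's brightest probe set, by mean over arrays, stood for it (22180 genes, 1082 of them with more than 1 set). All 3 comparisons came from 1 limma 3.58.1 model (R 4.3.3; lmFit, contrasts.fit, eBayes) on the 11 arrays, with 8 residual degrees of freedom and a prior of 4.14. Tests were two-sided, adjusted with Benjamini-Hochberg over all genes and called at an adjusted p under 0.05. The fit was also run on simulated data with independent noise and no replicate sets, so that run does not cover the replicate sets seen here. Figures used Python 3.11.15 and matplotlib 3.10.9.

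The members, gene lists and tests were chosen with earlier results of these data known. The named-gene rule took the members, up to 3 called genes per list, direction and comparison, the preset partners Selplg, Itgb1, Itgb7, Cd69 and Klf2, and the 3 nearest profiles of members differing by at least 0.5. The model did not pair arrays by replicate number, because the labels do not say what it marks. For AI-9-54 against AI-7-54, deviations from the group means of same-numbered arrays correlated at 0.141, 0.159 and 0.119. Those of differently numbered arrays correlated at -0.295 to 0.323. With the number as a block no call of a tested member changed. Alternatives tried were median centring, quantile normalization, a pair of low-signal filters, averaging or separating a gene's probe sets, a trended prior, array weights, the replicate block, the replicate set as a factor, either set alone, fitting only the groups compared, and leaving out each array.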

Additional observations from a re-analysis of the deposited data

Results flagged for a closer look

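Of 56 groups of 4 arrays examined, 2 held an array far from the rest, judged by the gap to its nearest neighbour as a share of the group's range. Chance gives about 1 in 20. Ccr2 after AI-8-45 had a share of 0.894, with replicate 1 at 8.82 and the others at 8.69 to 8.70. Klf2 after AI-8-45 had a share of 0.915, with replicate 3 at 7.74 and the others at 7.52 to 7.54.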

How the results depend on the processing

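Over 24 alternatives Cxcr4 was called between AI-9-54 and AI-7-54 in all, at -0.46 to -0.39. The S1pr1 call was also lost with arrays centred on their medians (adjusted p 0.052) and with only the groups compared (0.055), and the Ccr4 call with centring (0.0595); the cause was not tested.

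For comparisons with AI-7-54, any count of calls within replicates 1 and 2 rests on the single AI-7-54 array there. No conclusion is drawn from such a count. Tested members called between AI-9-54 and AI-7-54 numbered 1 with centring and 1 to 3 with an array left out. Between AI-9-54 and AI-8-45 they numbered 2 with the replicate set in the model and 0 within replicates 1 and 2. Other homing genes called between AI-9-54 and AI-7-54 numbered 23 with the set and 5 within replicates 1 and 2. Between AI-9-54 and AI-8-45 they numbered 9 with the set, 0 within replicates 1 and 2, and 1 to 4 with an array left out. Between AI-8-45 and AI-7-54 they numbered 14 with the set, and 3 to 9 with an array left out. Over all genes, calls between AI-9-54 and AI-7-54 numbered 593 within replicates 1 and 2. Between AI-9-54 and AI-8-45 they numbered 290, against 436 among genes above the median level, 816 with the set, 6 and 143 within the sets, 141 with only the groups compared, and 128 to 257 with an array left out. Between AI-8-45 and AI-7-54 they numbered 1255, against 1949 with the set, 613 within replicates 3 and 4, and 540 to 1229 with an array left out.

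Replicate numbers were not taken to pair arrays in any comparison. Same-numbered arrays correlated at 0.0795, 0.22, 0.0699 and 0.363 for AI-9-54 with AI-8-45, and differently numbered ones at -0.475 to 0.492. For AI-8-45 with AI-7-54 same-numbered arrays correlated at 0.451, 0.0748 and -0.0225, and differently numbered ones at -0.308 to 0.313. With the replicate block, AI-9-54 against AI-8-45 gave 517 called genes and 8 other homing genes, Klf2 (adjusted p 0.0718) and Itgb1 (0.0532) lost their calls and Selplg gained one (0.0473) between AI-8-45 and AI-7-54, Cd69 gained one between AI-9-54 and AI-8-45 (0.0115), and no call of a tested member changed.

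Signs that turned were of uncalled members. For AI-9-54 against AI-7-54, Ccr7 was -0.13 within replicates 1 and 2 and Itga4 -0.032 within 3 and 4. For AI-9-54 against AI-8-45, Ccr7 was -0.094 within replicates 1 and 2, and Ccr9 -0.014 to 0.041 with an array left out. For AI-8-45 against AI-7-54, Ccr4 was -0.057 within replicates 3 and 4 and -0.027 to 0.195 with an array left out, Ccr7 -0.016 with centring, -0.036 within replicates 1 and 2 and -0.033 to 0.029 with an array left out, and Itga4 0.042 within replicates 1 and 2 and -0.038 to 0.0094 with an array left out. With 3 or 4 arrays per group and no background level, differences of dim probe sets are the least certain.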
